A study of Homo sapiens with 12 samples.

Results

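The response of lung adenocarcinoma cells to HOXC6 was compared between the cell lines A549 and PC9 in 12 RNA-seq libraries. In each line the response of a gene was taken as the log2 ratio of its level in cells carrying HOXC6 over its level in control cells, and the quantity described here is the response in A549 minus the response in PC9. A positive difference therefore marks a gene with the higher response in A549, and a negative one a gene with the higher response in PC9. All genes with enough reads were taken, which left 9229 of the 12584 genes in the table.

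There were 4 groups of 3 libraries, named A549-HOXC6, A549-NEO, PC9-HOXC6 and PC9-NEO. Cells of the HOXC6 groups had been stably infected with the lentiviral vector pCDH-HOXC6, and cells of the NEO groups with the empty vector pCDH-NEO, so that control cells had also gone through infection and selection in neomycin. A549 was kept in RPMI medium and PC9 in DMEM, so a difference between the lines and one between the media cannot be told apart. Whether a line was 1 clone or a pool, and which promoter drove HOXC6, is not given in the sources used here, and HOXC6 itself was not analysed here, so the labels were not checked on the introduced gene.

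As background, HOX proteins are homeodomain transcription factors that set positional identity in the embryo and bind short AT-rich sequences, mostly together with cofactors of the PBX and MEIS families. A549 carries an inactivated KEAP1, the protein that holds the antioxidant factor NRF2 in check. PC9 carries an activated EGFR. The lines thus differ before any vector is added in growth factor signalling and in the oxidative stress response.

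The libraries held 1212053 to 3286577 counts over all genes, so that 3 counts, used below as the limit of detection in a library, were worth 0.915 to 2.57 CPM, the count scaled to a common library size. The main axis of variation separated the lines (84.3% of the variance), and the vectors separated along the next (6.01%). In the NEO libraries the level of a gene, relative to its mean over all libraries, was lower at higher GC content (Spearman coefficient across genes of −0.231 to −0.161), in the HOXC6 libraries it was higher (0.129 to 0.163), and A549-HOXC6 replicate 3 stood apart at 0.364. This trend was shared by the lines: the coefficient was 0.505 for the response in A549, 0.493 for that in PC9 and 0.0866 for their difference over 9165 genes. Rises and falls within a line are given below without a correction for this trend. How much of them goes with GC content, also where both lines moved the same way, was not tested. All 4 lung carcinoma epithelium markers in the table were above the limit of detection in every group, at a summed 7802 to 11680.0 CPM, 8 markers of fibroblasts summed to 67.3 to 89.4 CPM in A549 and 19.9 to 39.6 CPM in PC9, 3 of blood cells to 8.48 to 29.4 CPM, and 5 of endothelium to at most 9.10 CPM. The labels speak of independent replicates but not of separate cultures, so p-values measure the spread between these libraries, which may be technical.

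The response differed between the lines for 475 genes, 5.15% of those tested, of which 255 (2.76%) had the higher response in A549 and 220 (2.38%) in PC9. The balance turned with another scaling: there were 203 and 250 with RLE size factors, and 172 and 187 under DESeq2. The 475 genes passed edgeR's quasi-likelihood test at an adjusted p under 0.05 and differed by more than 1 on the log2 scale, and such genes are named "called" below. Without the criterion on size, 1789 genes (19.4%) passed, 1010 toward A549 and 779 toward PC9. Within the lines, where the same adjusted p alone was used, 2013 genes (21.8%) rose and 1711 (18.5%) fell in A549, and 1010 (10.9%) rose and 1119 (12.1%) fell in PC9. Both lines were measured against their own NEO libraries, which also enter the difference.

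In most called genes the response passed the test in a single line. Of the 255 with the higher response in A549, 145 (56.9%) rose in A549 and did not pass in PC9, 54 (21.2%) rose in A549 and fell in PC9, and 32 (12.5%) fell in PC9 and did not pass in A549. Of the 220 with the higher response in PC9, 106 (48.2%) fell in A549 alone, 49 (22.3%) rose in PC9 alone and 47 (21.4%) fell in A549 and rose in PC9. Genes that moved the same way in both lines but to another extent were few: 9 fell and 7 rose in both among the former, 5 fell and 4 rose in both among the latter. The number of genes with opposite responses depended on the processing and ranged from 26 to 72 for those up in A549 and down in PC9 and from 26 to 56 for the reverse.

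**Figure D1:**
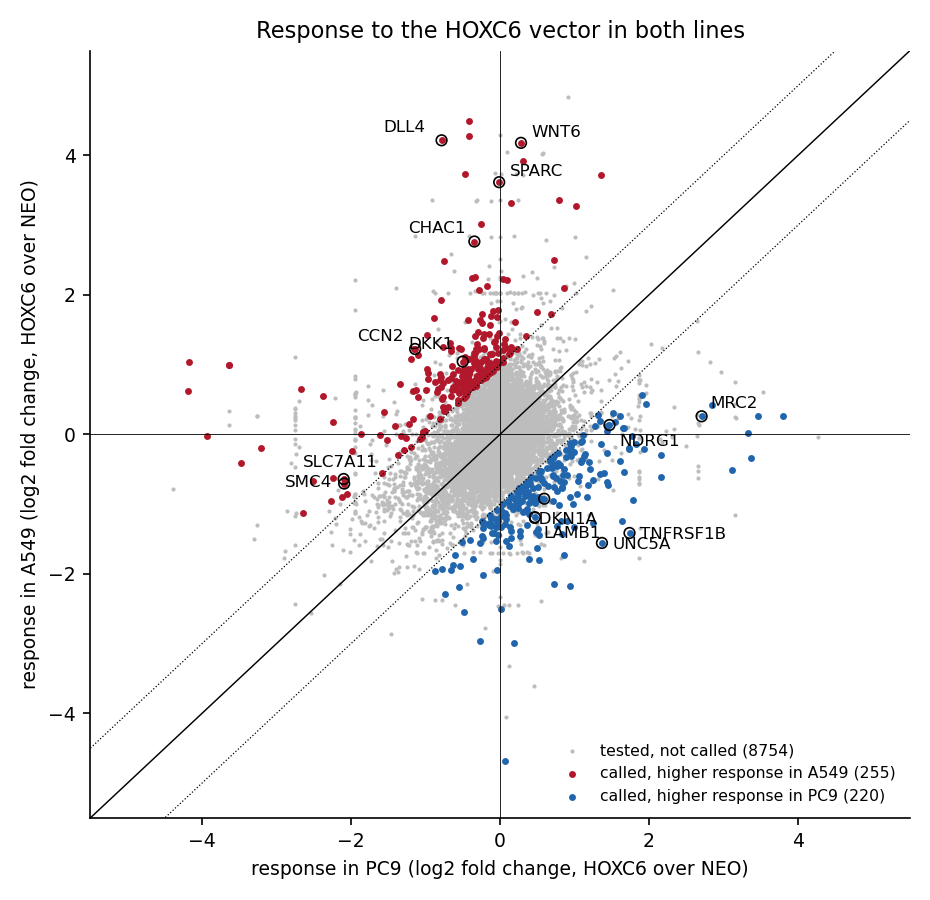
Response to the HOXC6 vector of each tested gene in PC9 (x axis, log2) and in A549 (y axis, log2), 3 libraries a group, with dotted lines at a difference of 1. Among 9229 tested genes, 255 called with the higher response in A549 (red) lie above the upper dotted line and 220 called with the higher response in PC9 (blue) below the lower.

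Genes of DNA replication and S phase had the higher response in A549. Of 34 tested members 11 (32.4%) were called, all with the higher response in A549, beside 2.76% of all genes in that direction, and the median difference over the list was 0.75 beside 0.05 over all genes tested. The level of 17 members rose in A549 and of none fell, while in PC9 none rose and 8 fell. At the start the list was lower in A549: with NEO 28 of the 34 genes were higher in PC9, and with HOXC6 24 were higher in A549. The number called ran from 7 under DESeq2 to 13.

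MCM5 encodes a subunit of the replicative helicase MCM2-7 (chr22:35796127-35821424, where coordinates of genes are in GRCh37). Its level was 72.9, 75.5 and 66.0 CPM in A549-NEO and 142, 128 and 162 CPM in A549-HOXC6, and 103, 99.7 and 121 CPM in PC9-NEO and 80.1, 77.4 and 92.7 CPM in PC9-HOXC6. The groups did not overlap in either line, which held for 48.5% of all genes in A549 and 37.6% in PC9, and MCM5 rose in A549 by 1.02 and fell in PC9 by 0.36 on the log2 scale. The difference was 1.38 (SE 0.164, adjusted p = 4.37e-08). The neighbouring helicase subunits MCM2, MCM3, MCM4 and MCM7 were called too, with differences of 1.02, 1.23, 1.19 and 1.04, and MCM6 (0.96) passed the test but not the size. MCM2 and MCM7 lost the call under 7 of 22 alternatives each.

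E2F1, the transcription factor that drives S phase genes (chr20:32263283-32274191), was at 34.7, 28.5 and 31.8 CPM in A549-NEO and at 66.6, 60.8 and 79.2 CPM in A549-HOXC6. In PC9 it was at 80.5, 77.5 and 60.2 CPM with NEO and at 58.4, 50.9 and 58.9 CPM with HOXC6. The A549 groups stood apart and the gene rose there by 1.12, while in PC9, where the HOXC6 libraries also lay below the NEO libraries, the response of −0.35 did not pass the test (adjusted p = 0.0644). The difference was 1.48 (SE 0.205, adjusted p = 9.67e-07).

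TK1, the thymidine kinase of the salvage pathway, went from 87.1, 81.2 and 78.6 CPM to 166, 158 and 226 CPM in A549 and from 184, 186 and 199.8 CPM to 173, 149.7 and 192 CPM in PC9. The A549 libraries with HOXC6 thus came to the level that PC9 already had, and the PC9 groups overlapped. The difference was 1.29 (adjusted p = 7.71e-08). The other called members were the flap nuclease FEN1 (1.39), the GINS subunit GINS1 (1.07), the DNA polymerase alpha subunit POLA1 (1.05) and the factor E2F2 (1.35), of which POLA1 and E2F2 lost the call under 9 of 22 and 6 of 21 alternatives.

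Among genes of mitosis and the kinetochore more fell than rose in either line, without a correction for the GC trend. Of 38 tested members 4 (10.5%) were called, all toward A549, beside 2.76% of all genes in that direction. By the adjusted p alone 11 passed, also all toward A549, beside 1010 of all 9229 genes. The 4 calls were all among 26 kinetochore and spindle genes (median difference 0.81). The 12 kinases and cyclins had none (median 0.15), and in A549 5 of them rose and 1 fell. Over the whole list 9 rose and 17 fell in A549, and 1 rose and 22 fell in PC9, with a median difference of 0.62. With NEO 32 of the 38 were higher in PC9, and with HOXC6 16 were. The summed level of the list was 3388 ± 49.0 CPM in A549-NEO and 3446 ± 16.9 CPM in A549-HOXC6 (SD, n = 3), in comparison to 2738 ± 18.8 and 1920.0 ± 11.9 CPM in PC9 (SD, n = 3).

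SMC4, a core subunit of condensin (chr3:160117062-160152742), was at 73.2, 84.4 and 59.7 CPM in A549-NEO and at 49.9, 45.4 and 42.8 CPM in A549-HOXC6. In PC9 it went from 104, 97.7 and 123 CPM to 23.2, 22.9 and 28.1 CPM. It fell in both lines without overlap, by 0.64 in A549 and by 2.1 in PC9 on the log2 scale, and the difference was 1.46 (SE 0.214, adjusted p = 2.57e-06). Of its exon bases 1796 lie opposite a gene on the other strand.

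CENPF, a kinetochore protein, fell by 0.90 in A549, from 35.4, 54.6 and 42.0 to 27.3, 20.5 and 20.3 CPM. In PC9 it fell by 2.12, from 108, 94.6 and 99.7 to 25.6, 19.9 and 23.2 CPM. The groups with HOXC6 of both lines lay at a like level, while PC9-NEO lay above A549-NEO (difference 1.22, SE 0.250, adjusted p = 0.000394). ASPM, a protein of the spindle poles, was called at 1.19 and SPC25, of the NDC80 complex, at 1.84, the latter not under 9 of 21 alternatives.

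Among 28 genes of the DNA damage response, RAD50, a subunit of the MRN complex that binds broken ends, and BRCA1 were called (7.14%, beside 5.15% of all genes). RAD50 was at 65.6, 65.5 and 54.2 CPM in A549-NEO and 31.7, 34.2 and 19.8 CPM in A549-HOXC6, and at 28.6, 39.3 and 32.7 CPM in PC9-NEO and 5.31, 3.69 and 6.10 CPM in PC9-HOXC6. It fell in both lines and further in PC9 (difference 1.51, SE 0.329, adjusted p = 0.000752), and it shares exon bases with another gene on its strand. BRCA1 (1.01) was not called under 11 of 21 alternatives.

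**Figure D2:**
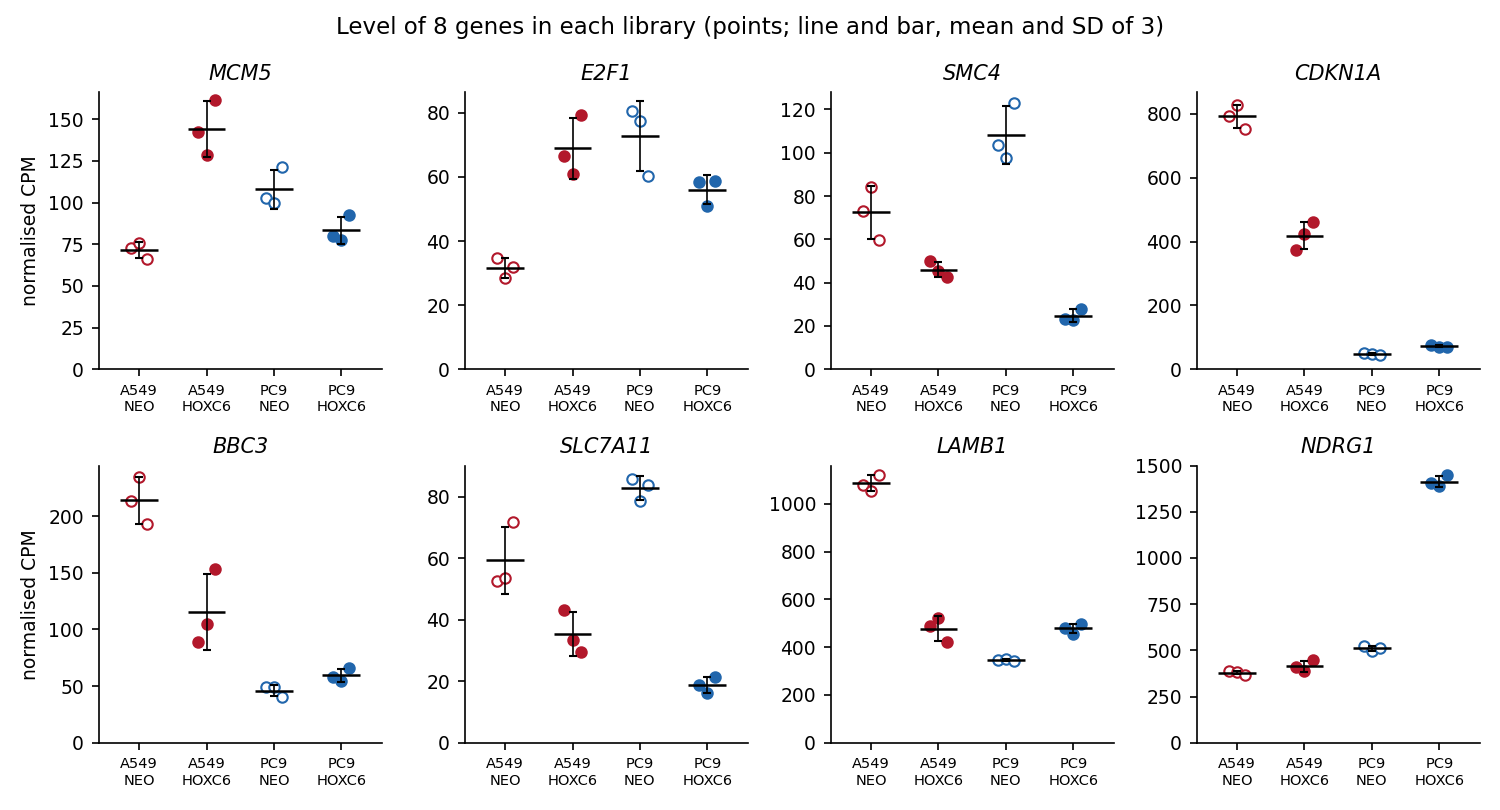
Level in CPM of MCM5, E2F1, SMC4, CDKN1A, BBC3, SLC7A11, LAMB1 and NDRG1 in each of the 12 libraries by group, with the mean and SD of 3 libraries. MCM5 and E2F1 went up in A549 only, SMC4 and SLC7A11 fell further in PC9, CDKN1A and LAMB1 fell in A549 and rose in PC9, and NDRG1 rose in PC9 from 498 to 522 CPM to 1389 to 1446 CPM.

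The p53 targets moved the other way. Of 19 tested genes of the list 7 were called (36.8%), 6 with the higher response in PC9, beside 2.38% of all genes, and 1 with the higher response in A549. The median difference was −0.73 (−0.84 to −0.65 over all alternatives). In A549 13 fell and 2 rose, whereas in PC9 2 fell and 2 rose. Their summed level was 3173 ± 68.8 CPM in A549-NEO and 2153 ± 121 CPM in A549-HOXC6, in comparison to 853.4 ± 16.1 and 869.6 ± 14.2 CPM in PC9 (SD, n = 3). With either vector 17 of the 19 were higher in A549, and for 17 the gap between the lines narrowed.

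CDKN1A encodes the cyclin-dependent kinase inhibitor p21 (chr6:36644237-36655114). It was at 794, 828 and 753 CPM in A549-NEO and at 374, 422 and 459.7 CPM in A549-HOXC6, and at 51.3, 46.8 and 45.0 CPM in PC9-NEO and 75.7, 70.1 and 69.5 CPM in PC9-HOXC6. The groups did not overlap in either line: p21 mRNA fell by 0.92 in A549 and rose by 0.59 in PC9, and the level in A549 over PC9 went from 4.06 to 2.54 on the log2 scale. The difference of the responses was −1.52 (SE 0.146, adjusted p = 4.31e-10) and was called under all 22 alternatives.

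BBC3, the pro-apoptotic BH3 protein PUMA, went from 213, 235 and 193 CPM to 89.2, 104 and 154 CPM in A549. In PC9 it was at 49.2, 48.8 and 40.3 CPM with NEO and at 58.4, 54.6 and 65.9 CPM with HOXC6. The groups of each line stood apart, yet the response in PC9 of 0.40 did not pass (adjusted p = 0.068), and the difference was −1.30 (SE 0.204, adjusted p = 8.3e-06). BBC3 was the single called gene of 23 cell death regulators tested (4.35%, near the 5.15% of all genes).

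BTG2, an antiproliferative p53 target, was at 43.7, 39.8 and 35.4 CPM in A549-NEO and 26.2, 13.7 and 26.2 CPM in A549-HOXC6, and at 11.3, 14.1 and 9.76 CPM in PC9-NEO and 18.3, 25.1 and 20.1 CPM in PC9-HOXC6. It fell in A549 and rose in PC9, and with HOXC6 the lines were at a like level (difference −1.60, SE 0.317, adjusted p = 0.000257). GADD45A, of the stress response (−1.13), RRM2B, a subunit of ribonucleotide reductase (−1.13), and FDXR, of mitochondrial electron transfer (−1.06), completed the called targets toward PC9. RRM2B and FDXR lost the call under 2 and 3 of 22 alternatives.

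TP53I3, a quinone oxidoreductase and a p53 target, was the single called gene of its list toward A549. It rose in A549, from 53.8, 43.4 and 42.8 CPM to 70.2, 77.0 and 97.9 CPM, and fell in PC9, from 9.19, 9.56 and 7.21 CPM to 3.86, 6.64 and 3.66 CPM (difference 1.77, SE 0.378, adjusted p = 0.000627). MDM2, the ubiquitin ligase of p53, had a difference of −0.58 that did not pass (adjusted p = 0.193).

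GDF15, a secreted member of the TGF-beta superfamily that p53 and cell stress induce, was at 802, 867 and 831 CPM in A549-NEO and at 263, 255 and 328 CPM in A549-HOXC6, and at 40.0, 26.7 and 36.9 CPM in PC9-NEO and 25.1, 22.1 and 34.5 CPM in PC9-HOXC6. It fell in A549 by 1.56 on the log2 scale, while the PC9 groups overlapped. The difference was −1.29 (SE 0.197, adjusted p = 5.13e-06).

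**Figure D3:**
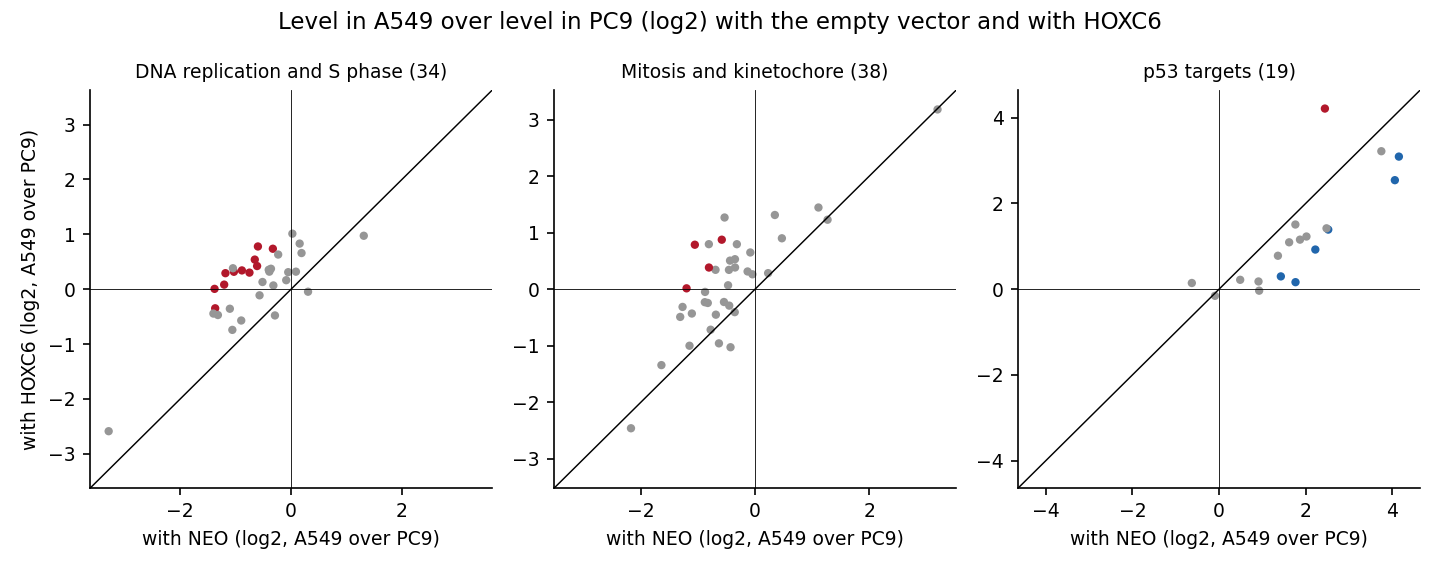
Level in A549 over level in PC9 (log2) with the empty vector (x axis) and with HOXC6 (y axis) for the genes of 3 lists, a point for each gene. S phase genes start mostly below 0 and lie above the diagonal (28 of 34 higher in PC9 with NEO, 24 of 34 higher in A549 with HOXC6), 32 of 38 mitosis genes lie above it, and 17 of 19 p53 targets lie below it, with red and blue points for genes called toward A549 and PC9.

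The list of NRF2, the factor of the antioxidant response, had the higher response in A549. It holds targets and 3 tested regulators. Of 26 tested 4 (15.4%) were called, all toward A549, beside 2.76% of all genes in that direction. Of these 4 calls 1 was a regulator, KEAP1. By the adjusted p alone 16 passed, all toward A549, beside 1010 of all 9229 genes. The median difference was 0.38, with 9 genes up and 5 down in A549 and 3 up and 11 down in PC9. Without A549-HOXC6 replicate 3, the library with the steeper GC trend, 1 was called and 1 passed the adjusted p toward PC9, and the median kept its sign.

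ALDH3A1, an aldehyde dehydrogenase, rose in A549 from 1199, 1154 and 1183 CPM to 2541, 2621 and 3249 CPM, in comparison to 233, 219 and 268 CPM and 246, 274 and 277 CPM in PC9, whose groups overlapped (difference 1.11, adjusted p = 4.64e-09). KEAP1, the inhibitor of NRF2, was called at 1.03, but not under 9 of 22 alternatives.

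SLC7A11, the cystine importer (chr4:139085251-139163503), fell in both lines. It was at 52.7, 53.4 and 71.9 CPM in A549-NEO and 43.3, 33.4 and 29.4 CPM in A549-HOXC6, and at 85.9, 78.5 and 84.0 CPM in PC9-NEO and 18.8, 16.2 and 21.3 CPM in PC9-HOXC6. The fall was 0.71 in A549 and 2.09 in PC9 on the log2 scale, without overlap in either line (difference 1.39, SE 0.239, adjusted p = 3.77e-05).

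SLC7A11 also belongs to the genes of the amino acid response. Of these 5 of 16 tested (31.2%) were called, all toward A549, beside 2.76% of all genes in that direction. CHAC1, which degrades glutathione and is a target of ATF4 (chr15:41245160-41248710), was at 13.9, 10.8 and 13 CPM in A549-NEO and at 80.8, 65.1 and 109 CPM in A549-HOXC6. In PC9 it was at 11.3, 14.6 and 8.48 CPM with NEO and 6.27, 10.3 and 10.1 CPM with HOXC6. It started at a like level in both lines, rose by 2.76 in A549 and overlapped between the groups in PC9 (difference 3.11, SE 0.369, adjusted p = 4.29e-08).

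SLC7A5 and SLC3A2, the light and heavy chains of the large neutral amino acid transporter, were called together. SLC7A5 went from 1044, 997 and 1063 CPM to 1452, 1354 and 1564 CPM in A549 and from 535, 499.9 and 555 CPM to 363, 355 and 359 CPM in PC9 (difference 1.06, adjusted p = 4.36e-10). SLC3A2 went from 312, 299.7 and 313 CPM to 501, 452 and 608 CPM in A549 and from 298, 341 and 338 CPM to 263, 233 and 266 CPM in PC9 (difference 1.11, adjusted p = 2.08e-08). Both rose in A549 and fell in PC9 without overlap. PSPH, the last enzyme of serine synthesis, was called at 1.12. The factor ATF4 had a difference of −0.01, and its targets ASNS and TRIB3 had 0.27 and 0.33, none past the test.

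Of 14 tested chaperones and other genes of the endoplasmic reticulum only SDF2L1 was called (1.04, not under 8 of 22 alternatives). Without A549-HOXC6 replicate 3, 4 of the 30 tested genes of the amino acid and endoplasmic reticulum list were called toward A549 in place of 6 (20%), and 1 toward PC9. Over the whole family of solute carriers 12 of 189 tested genes were called (6.35%), near the 5.15% of all genes, 9 toward A549 and 3 toward PC9. SLC27A2, a fatty acid transporter and acyl-CoA synthetase, rose in A549 from 79.1, 84.0 and 93.9 to 287, 269 and 267 CPM, whereas in PC9 the groups overlapped at 17.3, 14.6 and 15.3 and at 17.8, 16.2 and 12.8 CPM (difference 1.73, adjusted p = 6.21e-07). SLC25A37, the iron importer of mitochondria, fell in A549 and rose in PC9 (difference −1.39).

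Ribosomal protein genes differed by little each but mostly in 1 direction. Of 54 tested 31 passed the adjusted p, all toward PC9, beside 779 of all 9229 genes, and the number was 43 without A549-HOXC6 replicate 3 and 22 to 44 over all alternatives. Only RPL26 was also past the size (−1.06), and it was not called under 13 of 22 alternatives. The median difference was −0.32 (−0.39 to −0.27), with 1 gene up and 17 down in A549 and 31 up and 1 down in PC9. Their summed level was 75570, 74970 and 71970 CPM in A549-NEO and 65890, 68350 and 80250 CPM in A549-HOXC6. These groups overlapped, with A549-HOXC6 replicate 3 above every A549-NEO library. In PC9 the sum was 56030, 55220 and 58610 CPM with NEO and 65240, 68190 and 70740 CPM with HOXC6. Many of these genes have processed pseudogenes that can share their reads, and how such reads were counted is not given in the sources used here. Mitochondrial ribosomal proteins, with 47 tested, had no call and a median of 0.23.

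Among 56 matrix and integrin genes 4 were called toward A549 and 5 toward PC9 (16.1%, beside 5.15% of all genes). By the adjusted p alone 6 passed toward A549 and 16 toward PC9, beside 1010 and 779 of all 9229 genes. LAMB1, a laminin chain of basement membranes (chr7:107564244-107643658), was at 1079, 1055 and 1121 CPM in A549-NEO and 490.2, 522 and 420.1 CPM in A549-HOXC6. In PC9 it was at 348, 351 and 342 CPM with NEO and 480.5, 457 and 497 CPM with HOXC6. It fell in A549 and rose in PC9 until the lines were at the same level: A549 over PC9 went from 1.65 to −0.01 on the log2 scale (difference −1.66, SE 0.110, adjusted p = 2.35e-14).

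LAMA3, the alpha chain of laminin-332, fell in A549 from 258, 261 and 256 CPM to 124, 128 and 100.1 CPM. In PC9 it was at 31.3, 28.2 and 42.4 CPM with NEO and at 56.0, 41.3 and 39.3 CPM with HOXC6, which overlapped (difference −1.53, adjusted p = 1.74e-07). PLAU, the urokinase plasminogen activator, fell in A549 from 809, 839 and 789 CPM to 392, 356 and 404 CPM, and the PC9 groups overlapped at 82.1, 90.1 and 80.2 CPM and 85.4, 90.0 and 106 CPM (difference −1.25, adjusted p = 4.02e-09). All 3 genes were higher in A549 than in PC9 to begin with.

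MRC2, the collagen receptor Endo180, was near the limit of detection in PC9-NEO at 1.62, 2.01 and 1.70 CPM and rose to 8.68, 13.3 and 13.4 CPM in PC9-HOXC6. In A549 it was at 639, 623 and 613 CPM and then at 738, 671 and 828 CPM, so a gap of over 2 orders of magnitude narrowed (difference −2.45, adjusted p = 3.81e-06). SPOCK1, a secreted proteoglycan, rose in PC9 alone (difference −1.35).

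THBS1, the matrix glycoprotein thrombospondin-1, rose in A549 from 19.4, 27.3 and 22 CPM to 74.6, 71.9 and 59.4 CPM, in comparison to 64.3, 76.0 and 79.3 CPM and 68.5, 70.8 and 50.9 CPM in PC9 (difference 1.84, adjusted p = 5.06e-08). With HOXC6 the lines thus overlapped. SPARC, a collagen-binding glycoprotein, rose in A549 from 1.39, 0.402 and 1.57 CPM to 14.2, 10.3 and 18.2 CPM and stayed within 0 to 3.86 CPM in PC9 (difference 3.63, adjusted p = 0.00269). TIMP3, an inhibitor of metalloproteinases, had 3 counts in A549-NEO and 38 in A549-HOXC6, a ratio of 17.3 (95% exact counting interval 5.5 to 87.8), while PC9 was at 233 to 240.1 CPM with NEO and 282 to 301 CPM with HOXC6 (fitted difference 3.61). FBN1, the microfibril protein fibrillin-1, was called at 2.06. At a minimum of 10 counts in every library, which removes genes that are low in any group, 1 matrix gene was called toward A549.

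The Wnt pathway had 4 genes called toward A549 and 1 toward PC9 among 36 tested (13.9%, beside 5.15% of all genes). The list as a whole did not lean toward A549: its median difference was −0.06, with 16 members above 0 and 20 below. Of the 10 ligands 3 were called, all toward A549, beside 2.76% of all genes in that direction. The median was 1.02 for ligands, −0.10 for receptors, −0.19 for inhibitors and −0.20 for mediators and targets. WNT6 had 2 counts in A549-NEO and 32 in A549-HOXC6, a ratio of 21.9 (95% exact counting interval 5.59 to 189). In PC9 it was at 77.3, 86.1 and 89.9 CPM and at 92.1, 103 and 112 CPM, a response of 0.28 that did not pass (adjusted p = 0.138). A549 thus went up from nearly no reads to 4.0, 3.42 and 9.10 CPM and remained far below PC9. The fitted difference was 3.90 (adjusted p = 6.65e-05), where a fitted value against so few counts depends on the model's prior and is no bound.

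WNT5A, a ligand of the noncanonical branch, rose in A549 and fell in PC9 (difference 1.90), and WNT3 rose in A549 (difference 1.18, not under 3 of 22 alternatives). DKK1, a secreted inhibitor of the pathway (chr10:54074041-54077802), was at 724, 753 and 719 CPM in A549-NEO and 1451, 1512 and 1564 CPM in A549-HOXC6, and at 68.6, 71.0 and 60.2 CPM in PC9-NEO and 47.3, 47.2 and 46.4 CPM in PC9-HOXC6. It rose in A549 and fell in PC9 without overlap, so that a gene already higher in A549 became more so (difference 1.54, SE 0.133, adjusted p = 2.76e-11). TCF7L2, a transcription factor of the pathway, rose in PC9 (difference −1.14).

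Of 35 genes of the TGF-beta and BMP pathway, BAMBI and GDF15 were called (5.71%, near the 5.15% of all genes). BAMBI, a decoy receptor, rose in A549 from 26, 31.3 and 29.9 CPM to 85.2, 93.3 and 109 CPM, and the PC9 groups overlapped at 15.7, 19.6 and 13.1 CPM and 8.2, 11.1 and 18.6 CPM (difference 1.96, adjusted p = 7.68e-06). CCN2, the connective tissue growth factor, rose in A549 and fell in PC9 (difference 2.36).

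The Notch ligand DLL4 (chr15:41221538-41231271) rose in A549 from a low level. It was at 2.78, 2.41 and 0.786 CPM in A549-NEO and 42.9, 28.2 and 41.7 CPM in A549-HOXC6, whereas in PC9 it had 5 counts with NEO and 3 with HOXC6, a ratio of 0.554 (95% exact counting interval 0.0861 to 2.85). The rise in A549 was 4.22 (SE 0.351), and the fitted difference was 5.0 (SE 1.23, adjusted p = 0.00279). It was the single call among 16 genes of the Notch pathway (6.25%, near the 5.15% of all genes), and without A549-HOXC6 replicate 3 another was called toward PC9.

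The epithelial sodium channel had 2 of 4 tested subunits called, both toward A549, beside 2.76% of all genes in that direction. Over the channel and corticoid list these 2 were the only calls among 13 tested (15.4%, beside 5.15% of all genes). The median difference of that list was −0.01, beside 0.05 over all genes. SCNN1B, the beta subunit (chr16:23289552-23392615), rose in A549 from 5.20, 6.03 and 2.36 CPM to 50.6, 49.6 and 40.7 CPM, in comparison to 5.4, 7.05 and 7.63 CPM and 7.72, 11.8 and 14.6 CPM in PC9 (difference 2.56, SE 0.448, adjusted p = 4.71e-05). The lines started at a like level, and the response in PC9 of 0.79 did not pass (adjusted p = 0.0705). SCNN1G, the gamma subunit, had 5 counts in A549-NEO and 53 in A549-HOXC6 (ratio 14.5, interval 5.84 to 46.5) and also rose in PC9. Its difference of 2.36 was not called under 13 of 19 alternatives. Without A549-HOXC6 replicate 3, 1 of the 13 tested genes of the channel and corticoid list was called toward A549 and 1 toward PC9. SGK1, the kinase that keeps this channel at the surface, rose in both lines, by 2.06 in A549 and by 1.52 in PC9, and its difference of 0.55 did not pass (adjusted p = 0.0987).

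CEACAM6, a surface adhesion molecule related to carcinoembryonic antigen, rose in both lines from different levels. It went from 2.78, 0 and 1.18 CPM to 13.5, 18.8 and 11.2 CPM in A549 and from 22.7, 22.1 and 20.8 CPM to 45.8, 43.5 and 43.6 CPM in PC9. The groups did not overlap, and the rise was 3.28 in A549 and 1.02 in PC9 (difference 2.26, adjusted p = 0.000848). MALL, a membrane raft protein, also rose in both lines, by 1.37 and 1.01, with a difference of 0.36 that did not pass.

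The glycolysis and hypoxia list was divided, with 3 genes called toward each line among 31 (19.4%, beside 5.15% of all genes). NDRG1, a stress protein induced by hypoxia (chr8:134249418-134314265), was at 386, 382 and 369 CPM in A549-NEO and at 409.8, 388 and 446 CPM in A549-HOXC6, and at 522, 498 and 513 CPM in PC9-NEO and 1405, 1389 and 1446 CPM in PC9-HOXC6. It rose by 1.47 in PC9, and the response in A549 of 0.13 did not pass although the groups stood apart (difference −1.34, SE 0.102, adjusted p = 1.18e-12). ENO2, a glycolytic enolase, and P4HA1, a collagen prolyl hydroxylase, fell in A549 and rose in PC9, with differences of −1.25 and −1.54.

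ENO2 went from 220.3, 216 and 215 CPM to 171, 190.0 and 187 CPM in A549 and from 149, 146 and 138 CPM to 279, 292 and 289 CPM in PC9, so the line with the higher level changed. Toward A549 the list had the oxygen sensors EGLN1 (1.01) and EGLN3 (1.05) and the vasodilator peptide ADM (1.14). These 3 were less steady, since EGLN1 was not called under 10 of 22 and EGLN3 under 8 of 21 alternatives, and 1 of the 3 was left without A549-HOXC6 replicate 3 or under DESeq2.

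Of 32 genes of cholesterol and fatty acid synthesis 2 were called (6.25%, near the 5.15% of all genes), FADS2 and FDPS, both toward A549. FADS2, the delta-6 desaturase, rose in A549 from 338, 313 and 354 CPM to 543, 531 and 602 CPM and fell in PC9 from 188, 189.8 and 172 CPM to 142, 105 and 119 CPM (difference 1.31, adjusted p = 9.58e-10). FDPS, of the mevalonate pathway, was called at 1.04, and not under 5 of 22 alternatives. By the adjusted p alone 10 genes of the list passed toward A549 and 1 toward PC9, with a median difference of 0.31. Of all 9229 genes 1010 and 779 passed in these directions.

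Among 20 lung and endoderm lineage genes 3 were called toward A549 (15%, beside 2.76% of all genes in that direction). AGR2, a disulfide isomerase of secretory epithelium, was at 11.1, 18.5 and 13.8 CPM in A549-NEO and 32.8, 24.8 and 38.5 CPM in A549-HOXC6, and at 76.7, 76.5 and 78.0 CPM in PC9-NEO and 52.6, 53.8 and 42.4 CPM in PC9-HOXC6 (difference 1.86, adjusted p = 6.21e-07). FOXA1, a pioneer transcription factor of endoderm, rose in A549 from 17.0, 26.1 and 25.9 CPM to 32.4, 33.4 and 49.2 CPM and fell in PC9 from 205, 230.1 and 212 CPM to 153, 151 and 162 CPM (difference 1.21, adjusted p = 3.03e-05). Both were lower in A549 with either vector, and the gap became smaller. HNF4A, a transcription factor of liver and gut, rose in A549 by 0.99. In PC9 it had 4 counts with NEO and none with HOXC6, 1.44-fold lower with 3 counts put in place of none. Its call (fitted 4.62) was lost under 6 of 21 alternatives.

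Smaller sets of calls were spread over other pathways. Of 25 chemokine and NF-kB genes LIF, a cytokine of the interleukin-6 family, and IL18 were called toward PC9. They made up 8% of the list, beside 2.38% of all genes in that direction. LIF fell in A549 from 381, 359 and 375 CPM to 142, 157 and 167 CPM, and the PC9 groups overlapped (difference −1.13, adjusted p = 9.69e-08). IL18 fell in A549 and rose in PC9 (difference −1.18). Of 26 genes of MAPK output KLF6, a zinc finger factor, was called toward PC9 (−1.36) and EMP1, a membrane protein, toward A549 (1.24). The share called was 7.69%, beside 5.15% of all genes.

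KLF6 fell in A549, from 158, 178 and 152 to 126, 95.9 and 119 CPM, and rose in PC9, from 19.5, 19.1 and 23.3 to 40.5, 42.8 and 33.2 CPM. EMP1 rose in both lines, by 2.1 in A549 and by 0.85 in PC9. Single calls toward A549 were the complement component C2 (1.28), the iron regulator HFE (1.37) and the insulin-like growth factor binding protein IGFBP7 (1.19). Single calls toward PC9 were the interferon-induced ligase HERC5 (−1.98), the growth factor FGF19 (−2.59), the histone methyltransferase EZH1 (−1.11), the protease inhibitor SPINT1 (−1.26) and the kallikrein KLK10 (−2.12). The shares called in either direction were 11.1% of 9 complement, 5.88% of 17 iron and 10.5% of 19 FGF and IGF genes. They were 5.56% of 18 interferon genes, 2.5% of 40 chromatin regulators and 3.33% of 30 epithelial and mesenchymal genes. For the 12 CEACAM and mucosal surface genes the share was 16.7%. Of all genes 5.15% were called. The cilium genes INTU (−2.06) and KIF17 (−1.39) were called toward PC9, 5.88% of 34 tested in their list, near the 5.15% of all genes. The call was lost under 4 of 21 alternatives for HERC5, 4 of 19 for FGF19, 5 of 21 for KLK10, 4 of 20 for INTU and 11 of 21 for KIF17. Without A549-HOXC6 replicate 3 the complement list had no call, the iron list 2 toward A549, the MAPK list 2 toward PC9, the epithelial and mesenchymal list, of which SPINT1 is a member, 3 toward PC9, and the cilium list 1.

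**Figure D4:**
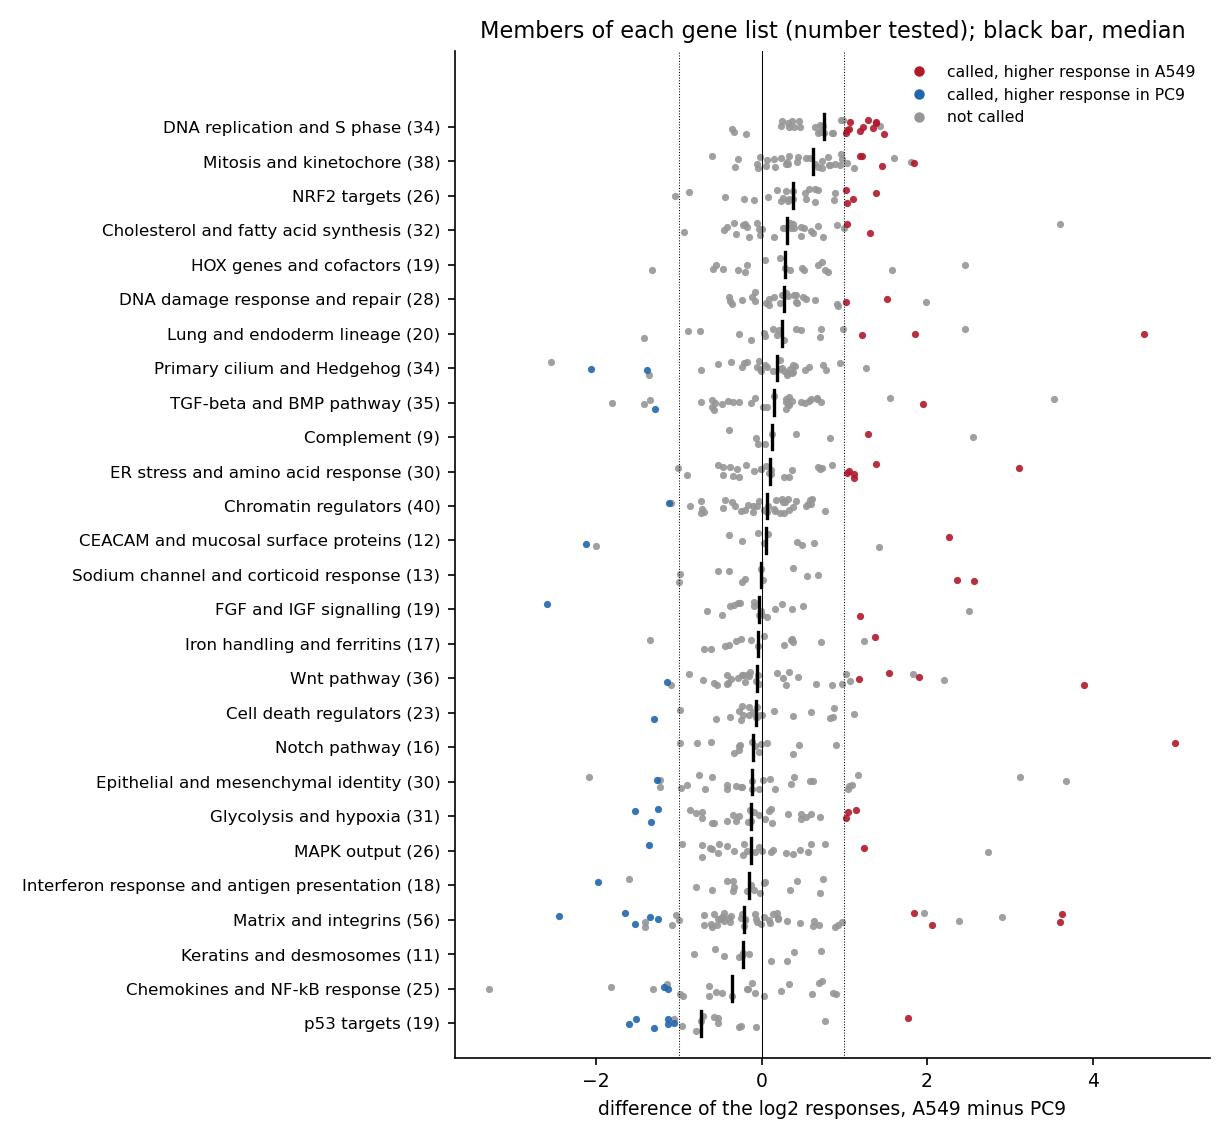
Difference of the responses (log2, A549 minus PC9) of each tested member of the gene lists, a row a list, with the median as a black bar. S phase genes lie mostly right of 0 (31 of 34) with a median of 0.75, and p53 targets mostly left of it (17 of 19) with a median of −0.73.

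No gene was called among 11 keratins and desmosome genes or among 19 HOX genes and cofactors. With 5.15% of all genes called, lists this short can lack a call without differing from all genes. By the adjusted p alone 5 of the 11 passed, 3 toward A549 and 2 toward PC9. Of the 19 HOX genes and cofactors 1 passed, beside 19.4% of all genes. Among the HOX genes HOXC13, of the same cluster as HOXC6, came nearest: it was at 24.6, 21.3 and 19.6 CPM in A549-NEO and 33.8, 44.5 and 38.5 CPM in A549-HOXC6, while PC9 overlapped at 60.0, 44.3 and 62.3 CPM and 46.3, 63.4 and 56.7 CPM (difference 0.81, adjusted p = 0.0141). The tumour suppressor APC and ANKRD12, a regulator of nuclear receptor coactivators, fell in both lines. APC fell by 1.2 and ANKRD12 by 2.01 on the log2 scale in A549, and by 2.21 and 2.36 in PC9, without a correction for the GC trend. Neither difference passed (1.02, adjusted p = 0.155, and 0.35, adjusted p = 0.73), and neither did that of the metalloproteinase MMP2 (0.97, adjusted p = 0.762), which had 2 and 3 counts in the PC9 groups. Zinc finger genes were called at 4.96% of 141 tested, near the share of all genes.

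Called genes were ranked if they had over 3 counts in a library of each line and a mean of at least 5 CPM in the highest group. The line that responded more also had to show no overlap between its groups. Among these genes the 2 largest differences in each direction were those of GPRASP2 and WNT6 toward A549 and of RNF144B and PTGDS toward PC9. GPRASP2, a sorting protein for G protein-coupled receptors, rose in A549 from 3.12, 6.83 and 5.11 CPM to 10.6, 5.14 and 13.4 CPM, with overlap. In PC9 it had 6 counts with NEO and none with HOXC6, 2.17-fold lower with 3 counts put in place of none (fitted difference 5.21, adjusted p = 0.0223, not called under 4 of 19 alternatives). RNF144B, an E3 ubiquitin ligase and p53 target, had 11 counts in A549-NEO and none in A549-HOXC6, 2.68-fold lower in the same way, while the PC9 groups overlapped between 7.72 and 13.1 CPM (fitted difference −4.75, adjusted p = 0.024, not called under 6 of 20 alternatives).

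PTGDS, a prostaglandin D2 synthase, had 1 count in PC9-NEO and 15 in PC9-HOXC6, a ratio of 13.9 (95% exact counting interval 2.13 to 583), and overlapped in A549 between 5.82 and 14.5 CPM (fitted difference −3.72, adjusted p = 0.0147, not called under 4 of 21 alternatives). All 4 genes thus had few reads in at least 1 group. The promoters of these 4 genes, from 250 bases before to 50 after the RefSeq start in GRCh38.p14, are shown because HOX proteins bind AT-rich motifs. The homeodomain core TAATTA, which reads the same on both strands, is in none of them, and no part of these sequences is in capitals:
GPRASP2 (chrX:102712198-102712497, plus strand): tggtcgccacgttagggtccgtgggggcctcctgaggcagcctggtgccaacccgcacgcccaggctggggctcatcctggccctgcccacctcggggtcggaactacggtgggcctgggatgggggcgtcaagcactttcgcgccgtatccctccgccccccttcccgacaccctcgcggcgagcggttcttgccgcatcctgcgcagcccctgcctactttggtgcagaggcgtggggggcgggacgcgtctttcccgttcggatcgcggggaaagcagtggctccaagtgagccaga
WNT6 (chr2:218859555-218859854, plus strand): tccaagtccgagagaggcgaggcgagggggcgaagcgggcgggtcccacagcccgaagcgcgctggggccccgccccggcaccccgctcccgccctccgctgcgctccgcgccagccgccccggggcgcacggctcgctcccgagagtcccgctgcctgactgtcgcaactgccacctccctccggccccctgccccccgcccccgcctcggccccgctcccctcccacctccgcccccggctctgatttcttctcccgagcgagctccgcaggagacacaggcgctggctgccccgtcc
RNF144B (chr6:18387100-18387399, plus strand): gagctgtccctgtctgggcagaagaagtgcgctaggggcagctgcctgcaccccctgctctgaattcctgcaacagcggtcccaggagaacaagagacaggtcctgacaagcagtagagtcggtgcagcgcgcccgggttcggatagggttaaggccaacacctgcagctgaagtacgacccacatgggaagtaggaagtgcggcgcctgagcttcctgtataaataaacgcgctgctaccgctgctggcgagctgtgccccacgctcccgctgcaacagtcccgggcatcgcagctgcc
PTGDS (chr9:136977254-136977553, plus strand): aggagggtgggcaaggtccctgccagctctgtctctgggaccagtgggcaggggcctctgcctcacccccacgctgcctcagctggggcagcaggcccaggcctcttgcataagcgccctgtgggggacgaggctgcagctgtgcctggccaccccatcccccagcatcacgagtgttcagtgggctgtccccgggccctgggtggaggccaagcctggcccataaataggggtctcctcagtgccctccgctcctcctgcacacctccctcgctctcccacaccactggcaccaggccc
TAATTA was found in 4.98% of all 27305 promoters of this length, in 1.53% of those of 7428 tested genes, in 1.49% of those of 202 genes called toward A549 and in 1.95% of those of 154 genes called toward PC9. That these letters are not in a window of this length says nothing of binding elsewhere.

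Other genes with a large difference toward A549 were SPARC and TIMP3, given above, and EMILIN1, an elastic fibre glycoprotein. EMILIN1 rose in A549 from 2.08, 2.81 and 4.71 CPM to 15.6, 14.6 and 23.5 CPM and overlapped in PC9 (difference 3.24). AADAC, an arylacetamide deacetylase, fell in PC9 from 24 counts to 2 (ratio 0.077, interval 0.00882 to 0.31, fitted difference 3.08). So did a gene with no symbol here, ENSG00000090920, from 20 to 2 counts (ratio 0.0924, interval 0.0105 to 0.38, fitted difference 3.02). ZNF268, a zinc finger gene, also fell in PC9 (difference 3.31). GBX2, a homeodomain factor, had 11 and 2 counts there (ratio 0.168, interval 0.0181 to 0.77, fitted difference 2.92), and was not called under 7 of 20 alternatives.

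Toward PC9, GAL3ST1, which makes sulfatide, had 2 counts in PC9-NEO and 35 in PC9-HOXC6 (ratio 16.2, interval 4.15 to 139) and overlapped in A549 between 29.7 and 45.5 CPM. Its difference was −3.54 (adjusted p = 0.000357). KCNJ4, a potassium channel, went from 1 count to 12 in PC9 (ratio 11.1, interval 1.64 to 474, fitted difference −3.62), and CCDC74B from 1 to 16 (ratio 14.8, interval 2.30 to 620.0, fitted difference −3.20). They lost the call under 6 of 20 and 9 of 21 alternatives. DNMT3L, a cofactor of DNA methylation, fell in A549 from 20 counts to 3 (ratio 0.205, interval 0.0391 to 0.692, fitted difference −3.12). ECM1, an extracellular matrix protein, fell in A549 from 32 counts to 5 (difference −2.87).

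UNC5A, a netrin receptor, was at 2.43, 1.61 and 3.93 CPM in A549-NEO and 1.09, 0.856 and 0.535 CPM in A549-HOXC6, and at 65.4, 63.9 and 61.1 CPM in PC9-NEO and 152, 150.4 and 184 CPM in PC9-HOXC6. It fell in A549 and rose in PC9, where it was higher from the start (difference −2.93, SE 0.608, adjusted p = 0.000453). The adhesion protein NECTIN4 showed the same order, from 4.16, 3.62 and 2.36 CPM to 1.82, 0.856 and 1.07 CPM in A549 and from 28.6, 23.7 and 28 CPM to 64.2, 64.9 and 62.8 CPM in PC9 (difference −2.52). TNFRSF1B, the type 2 TNF receptor, fell in A549 from 6.59, 6.43 and 6.68 CPM to 2.55, 3.42 and 1.61 CPM and rose in PC9 from 6 counts to 23 (ratio 3.54, interval 1.40 to 10.6), so that the lines met (difference −3.15).

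How the difference related to the level of a gene in the lines was described with the level averaged over both vectors. In this balanced design its error is not tied to that of the difference where the libraries spread alike. A response in a single line moves both, so the level classes are not independent of the calls. The shares called are a description, with no test between classes. Among 6083 genes within 2-fold of each other or with no level difference past the test, 2.33% were called toward A549 and 1.59% toward PC9. Among 1429 genes over 2-fold higher in A549 the shares were 3.92% and 5.67%, and among 1276 genes over 2-fold higher in PC9 they were 3.92% and 3.29%. Where a line was at the limit of detection in all its libraries, 5 of 284 genes (1.76%) were called for PC9 and 2 of 157 (1.27%) for A549, all 7 toward A549.

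Genes over 2-fold higher in A549 that were called toward PC9 numbered 81, the largest share of a class (5.67%), of which 51 fell in A549 and 46 rose in PC9. CDKN1A, PLAU, GDF15 and SLC25A37 are examples. Genes higher in PC9 that were called toward A549 numbered 50, of which 48 rose in A549 and 12 fell in PC9, as did WNT6, AGR2 and FOXA1 in A549. There were also 56 genes higher in A549 that were called toward A549, such as DKK1 and ALDH3A1, of which 43 rose in A549 and 24 fell in PC9. ALDH1A1, a retinal dehydrogenase, belongs to the last: it was at 4420.5, 4565 and 4285 CPM in A549-NEO and 4544, 4694 and 4079 CPM in A549-HOXC6, and fell in PC9 from 34.0, 42.3 and 35.2 CPM to 10.1, 8.11 and 11 CPM (difference 1.88, adjusted p = 2.63e-10).

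**Figure D5:**
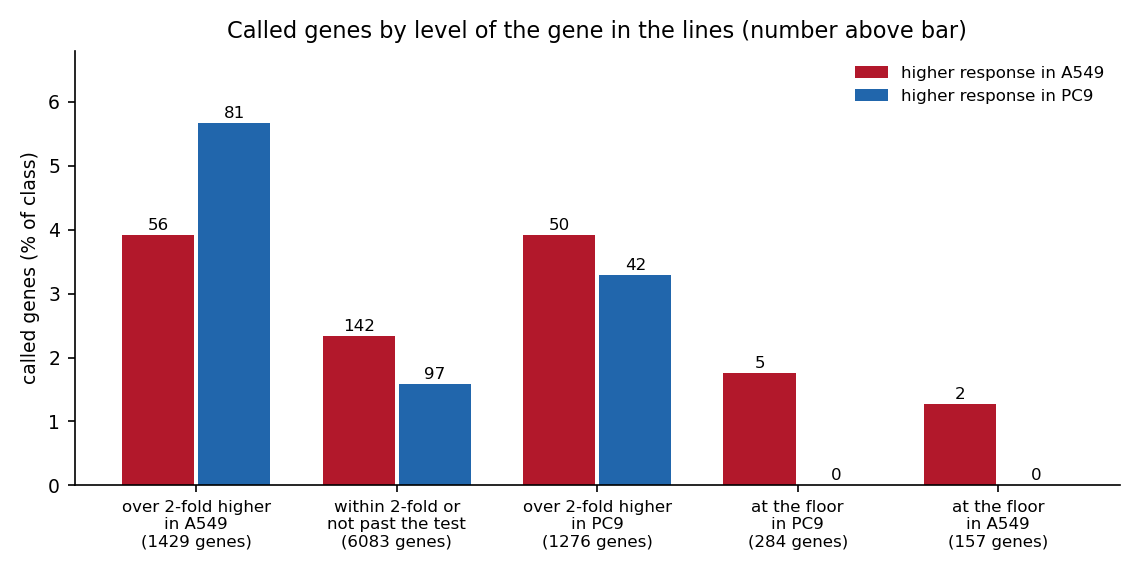
Share of the tested genes of each level class (percent, y axis from 0) that were called toward A549 or toward PC9, with the number of genes above each bar. The tallest bar is that of genes over 2-fold higher in A549 called toward PC9 (81 genes, 5.67%), and no gene at the limit of detection in 1 line was called toward PC9.

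In terms of the gap between the lines, the 255 genes called toward A549 had a median level in A549 over PC9 of −0.75 with NEO and 0.50 with HOXC6 on the log2 scale. For the 220 genes called toward PC9 it went from 1.1 to −0.34. The direction of this change follows from how the genes were called, but its size does not fix whether the gap closes. Among genes above the limit of detection in both lines the gap narrowed for 134 of 248 and 133 of 220, in comparison to 4621 of 8788 over all genes tested, and the median of its absolute size went from 1.1 to 0.91, from 1.59 to 1.08 and from 0.68 to 0.63.

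At the extremes were genes read in practice in 1 line. ALPP, the placental alkaline phosphatase, was at 447 to 733 CPM in PC9. It had no count in A549-NEO and 6 in A549-HOXC6, 2.74-fold higher with 3 counts put in place of none (fitted 4.70). PI3, the elastase inhibitor elafin, had no count and then 4 in A549, 1.82-fold higher in the same way (fitted 4.21, not called under 11 of 21 alternatives). CPLX2, a regulator of vesicle fusion, rose in A549 from 367, 360.0 and 345 CPM to 686, 706 and 734 CPM. In PC9 it had 4 counts and then none, 1.44-fold lower (fitted 4.63, not called under 4 of 21 alternatives). MID1IP1, a regulator of lipid synthesis, had 5 counts and then none in PC9, 1.80-fold lower (fitted 3.92, not called under 7 of 21 alternatives). Such ratios take the count of the other group as exact and are no lower bounds.

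Reads of some genes can belong to a neighbour. Of the 102 called genes given with values, 40 share exon bases with a gene on the other strand, among them SMC4 (1796 bases), PLAU (915), SLC7A11 (865), THBS1 (694), MRC2 (676), ALPP (631) and LAMB1 (484), and 15 share them with a gene on their own strand, among them RAD50 (8124), EGLN1 (3004) and C2 (1844). The library kit marks strand, but the strand setting of the counting is not given in the sources used here, so the share of such reads is not known.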

How the data were processed

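Polyadenylated RNA of the stably infected cells was sequenced, and the authors deposited raw read counts per gene, of which the 12 libraries used here form 1 table. Submitters' processing notes name bcl2fastq 2.19, HISAT2 2.1.0, HTSeq 0.9.1 and DESeq2, and the build GRCh37.p13. The strand setting is not given in the sources used here. Genes with a complete entry numbered 12584, the table used here ends in 1 incomplete entry, which was left out, and genes beyond it, HOXC6 among them, were not analysed here, so list sizes and counts cover part of the genes. Of those used, 121 genes were not in the annotation used for coordinates.

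Counts were filtered with filterByExpr, scaled by TMM and fitted over all 12 libraries with edgeR 4.0.16 (quasi-likelihood, R 4.3.3), with contrasts for each line and their difference. Benjamini-Hochberg adjustment ran over all 9229 genes. CPM are TMM-scaled, and counting intervals (95%) cover counting error only. Where a group had no read, 3 counts were put in its place. The count of the other group was then taken as exact, so such a ratio is no lower bound. On simulated data of 9141 genes, 152 of 199 genes (76.4%) changed by 1.5 on the log2 scale were called and 8 unchanged ones. The changed genes were drawn from better-read genes only, so the share recovered does not cover genes with few reads. Neither a GC trend nor other responses within a line were simulated. Alternatives were DESeq2 1.42.0, other scalings, filters and thresholds, a GC and length correction (mgcv 1.9.3), a replicate block, equal depth, and leaving out each library. Counts over lists under each of these were added after seeing the data.

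Members and lists were chosen with earlier results of these data known. Named were the 10 largest differences in each direction among genes that met the count, level and overlap criteria given above. Also named were the 4 most abundant called genes at the floor in 1 line and the 4 clearest opposite responses. Up to 4 called genes a list, genes that the study names, and up to 3 a family were added. Further called list members, ALDH1A1, SLC27A2 and SLC25A37 were named after their values were seen. A few genes are counted but not reported here by name. GRCh38.p14 promoters are from RefSeq.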

Additional observations from a re-analysis of the deposited data

Results flagged for a closer look

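The test of the difference itself flagged the response to HOXC6 as unlike in the lines for 475 genes, and 102 of them are given with values in the report. The log2 difference (A549 minus PC9) that brought each of these here is given by group. No group held enough libraries for a test of single libraries that stand out, and all 12 libraries of the table entered the comparison.

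Among genes of DNA replication, mitosis and DNA repair, the difference was 1.02 for MCM2, 1.23 for MCM3, 1.19 for MCM4, 1.38 for MCM5, 1.04 for MCM7, 1.07 for GINS1, 1.05 for POLA1, 1.39 for FEN1, 1.29 for TK1, 1.48 for E2F1, 1.35 for E2F2, 1.46 for SMC4, 1.22 for CENPF, 1.19 for ASPM, 1.84 for SPC25, 1.51 for RAD50 and 1.01 for BRCA1. Among genes of the p53 response, the difference was −1.52 for CDKN1A, −1.30 for BBC3, −1.13 for GADD45A, −1.60 for BTG2, −1.13 for RRM2B, −1.06 for FDXR, 1.77 for TP53I3 and −1.29 for GDF15. Among genes of the antioxidant and amino acid responses, the solute carriers and the ribosome, the difference was 1.11 for ALDH3A1, 1.03 for KEAP1, 1.39 for SLC7A11, 3.11 for CHAC1, 1.06 for SLC7A5, 1.11 for SLC3A2, 1.12 for PSPH, 1.04 for SDF2L1, 1.73 for SLC27A2, −1.39 for SLC25A37 and −1.06 for RPL26. Among genes of the Wnt, TGF-beta and Notch pathways, the difference was 3.90 for WNT6, 1.90 for WNT5A, 1.18 for WNT3, 1.54 for DKK1, −1.14 for TCF7L2, 1.96 for BAMBI, 5.0 for DLL4 and 2.36 for CCN2. Among genes of the matrix, the difference was 3.63 for SPARC, 3.61 for TIMP3, 1.84 for THBS1, 2.06 for FBN1, −2.45 for MRC2, −1.66 for LAMB1, −1.53 for LAMA3, −1.25 for PLAU, −1.35 for SPOCK1, 3.24 for EMILIN1 and −2.87 for ECM1. Among genes of epithelial channels, surface proteins and lineage, the difference was 2.56 for SCNN1B, 2.36 for SCNN1G, 2.26 for CEACAM6, −2.12 for KLK10, 1.86 for AGR2, 1.21 for FOXA1, 4.62 for HNF4A, −1.26 for SPINT1 and −2.52 for NECTIN4. Among genes of hypoxia and lipid synthesis, the difference was −1.34 for NDRG1, −1.25 for ENO2, −1.54 for P4HA1, 1.01 for EGLN1, 1.05 for EGLN3, 1.14 for ADM, 1.31 for FADS2, 1.04 for FDPS and 3.92 for MID1IP1. Among genes of cytokines, growth factor signalling and single calls of other lists, the difference was −1.13 for LIF, −1.18 for IL18, −1.98 for HERC5, 1.28 for C2, −1.36 for KLF6, 1.24 for EMP1, 1.37 for HFE, −2.59 for FGF19, 1.19 for IGFBP7, −1.11 for EZH1, −2.06 for INTU, −1.39 for KIF17, −3.15 for TNFRSF1B and −2.93 for UNC5A. Among genes of no list in particular, the difference was 5.21 for GPRASP2, 3.31 for ZNF268, 3.08 for AADAC, 3.02 for ENSG00000090920, 2.92 for GBX2, −4.75 for RNF144B, −3.72 for PTGDS, −3.62 for KCNJ4, −3.54 for GAL3ST1, −3.20 for CCDC74B, −3.12 for DNMT3L, 4.63 for CPLX2, 4.70 for ALPP, 4.21 for PI3 and 1.88 for ALDH1A1.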

How the results depend on the processing

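In place of 475 genes, 307 were called with at least 10 counts in every library (290 of them shared, 134 toward PC9 in place of 220), where 6904 genes were tested. At an adjusted p under 0.01, 136 were called toward PC9. Without the criterion on size there were 1789 (1010 toward A549 and 779 toward PC9), and against a null of a log2 difference of 1 there were 13 (9 and 4): MRC2, LAMB1, HNRNPM, TIMP3, ATP8B4, DKK1, EIF4G2, WNT6, CHAC1, THBS1, RHCG, PADI3 and ALDH1A1. DESeq2 called 359, of which 340 were shared. Leaving out single libraries gave 438 to 551 in all, 227 to 289 toward A549 and 192 to 262 toward PC9. Replicate numbers did not pair the libraries (mean correlation of deviations of 0.00317 for A549 and 0.00337 for PC9). The replicate block called 488 genes (257 and 231), of which 453 were shared.

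Under settings that keep both thresholds, 2084 of 2307 pairs of a gene and a setting kept the direction and the side of the threshold, 222 kept the direction and lost the call, and 1 turned: MMP2, not called, was at −1.77 without PC9-NEO replicate 3 (adjusted p = 0.585), and at up to 2.04 without another library. Of the 102 called genes given with values, 53 were called under every alternative in which they were tested. This covers alternatives with a size threshold and a test against 0. An alternative that gave no test of a gene, as by a filter on low counts, is not counted. SPARC was thus judged under 20 and ZNF268 under 19 alternatives, in place of 22. For called genes that lost the call the cause was not tested. Depth limited the size of a response where a group held at most 3 counts a library (0.915 to 2.57 CPM).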
